A study of Mus musculus with 6 samples.

Results

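The wild-type libraries describe the whole testis of the E16.5 mouse embryo, in which the fetal organ has its cords, its steroid-producing cells and its resting germ cells in place. They are 3 of the 6 RNA-seq libraries of a study whose other 3 are labelled cKO. The members were chosen by label alone, as the libraries labelled WT1, WT2 and WT3, and no value of a cKO library was used. Each library is titled as a separate replicate of wild type, and the design text speaks of 3 wild-type mice. The sources used here give no strain, no allele or Cre that these mice may carry, no litter and no number of testes per library. Polyadenylated RNA of the whole organ was sequenced after oligo-dT capture. With 1 group there is no contrast, so no test was made, and each value stands with its spread over the 3 libraries.

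In a fetal mouse testis the Sertoli cells line the cords and secrete anti-Müllerian hormone, which makes the female duct regress. Fetal Leydig cells between the cords turn cholesterol into androgens and secrete insulin-like factor 3, which acts on the ligament that lowers the testis. The germ cells at this stage are prospermatogonia, which have stopped dividing, do not enter meiosis and silence transposons with small RNAs of the piRNA pathway. Around them lie peritubular myoid cells, stromal progenitors, vessels and macrophages. In a whole organ, fewer cells of a type and less RNA per cell cannot be told apart.

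The WT libraries held 15513157, 15281569 and 16646569 counts over a table of 42747 rows, and 26453 to 27358 rows had a count in a library. A further 12096 rows had no count in any of the 3. Genes of the Y and mitochondrial chromosomes were not analysed here, with 0 rows placed on either. Of the rows, 12338 carried no gene name. Between any pair of libraries the chi-square of the counts was 13.5 to 15.1 per degree of freedom, where sampling noise alone gives about 1, so none was a second copy of another.

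Levels are given as FPKM, fragments per kilobase of gene length scaled by the depth of the library. This allows genes of different length to be set against each other, as far as the gene lengths used hold. A level of at least 1 FPKM in all 3 libraries was reached by 14175 rows, of which 12394 were protein-coding. That was 60.6% of the 20461 protein-coding rows, against 8.20% of the 2841 lincRNA rows, which are long RNAs from between genes. The range above that was steep. In all 3 libraries, 5977 rows reached 10 FPKM, 270 reached 100 FPKM and 2 reached 1000 FPKM. No small group of genes dominated: 50% of all counts lay in 1730, 1583 and 1595 genes of WT1, WT2 and WT3, and 90% of them in 7153 to 7401 genes. With 0 rows placed on the mitochondrial chromosome, that holds only for the counted rows. The 20 rows with the highest mean FPKM together held 2.39% ± 0.103 of the counts (SD, n = 3).

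Genes of protein synthesis filled the top of the ranking. Rpl4, a protein of the large ribosomal subunit, stood at 1088, 1104 and 970 FPKM in WT1, WT2 and WT3. Rpl8, of the same subunit, stood at 1008, 1185 and 829 FPKM. Rps12, of the small subunit, stood at 911, 1164 and 838 FPKM. WT3 was the lowest of the libraries for these genes. Rps3a1 averaged 997 FPKM, Rps26 885, Rpl17 668, Rplp0 632, Rps7 626 and Rpl37a 626. Eef2, the factor that moves the ribosome along the message, stood at 965, 1023 and 866 FPKM. Of 76 rows for ribosomal proteins, 75 reached 1 FPKM in all 3 libraries, 49 averaged at least 100 FPKM, 34 were among the 100 highest rows and 9 among the 20 highest. They held 2.65% ± 0.280 of the counts but 7.02% ± 0.542 of the summed FPKM (SD, n = 3), since their messages are short. Their median was 155 FPKM. Ribosomal protein genes have many near-identical pseudogenes, and the row Gm10073 (863 FPKM), which the file describes with a ribosomal protein domain, cannot be separated from the gene it resembles, so single values in this family are uncertain.

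**Figure D1:**
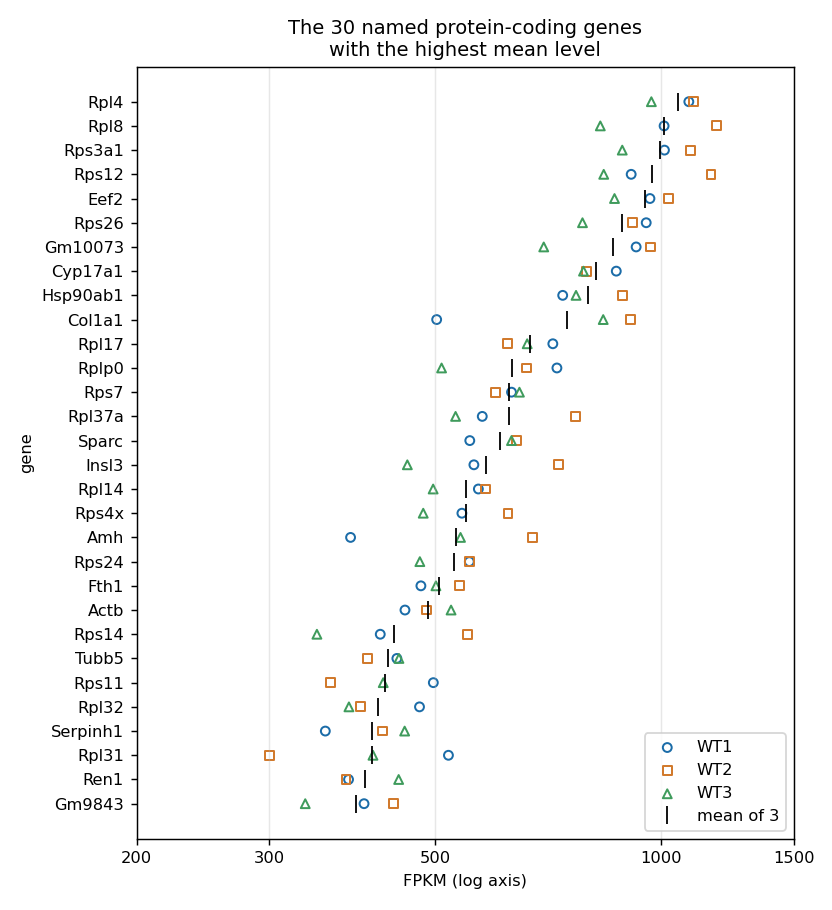
Level of the 30 protein-coding genes with a name that had the highest mean, on a log axis of FPKM, with 1 symbol per library and a black bar at the mean of 3. Translation genes fill most of the upper rows, with Cyp17a1, Col1a1, Sparc, Insl3, Amh and Ren1 between them, and Col1a1 and Amh have WT1 lowest by a wide gap.

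Messages of this class can start at a C followed by a run of pyrimidines, the sequence through which growth signals control their translation. The start sites of 6 members are shown. They were picked because they hold it, and higher-ranked members such as Rpl4 and Rpl8 are not shown. So the 6 do not tell how common it is, which the counts after them give. Each is 30 bases of RefSeq sequence (GRCm38.p6), 15 on either side of the annotated start, with the C and its pyrimidines in capitals.
Rps26 (chr10:128626492-128626521, minus strand): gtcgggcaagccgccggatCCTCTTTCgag
Rpl14 (chr9:120571502-120571531, plus strand): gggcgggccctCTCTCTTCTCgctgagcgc
Rps24 (chr14:24490663-24490692, plus strand): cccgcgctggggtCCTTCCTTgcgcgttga
Rpl31 (chr1:39367836-39367865, plus strand): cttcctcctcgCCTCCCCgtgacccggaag
Rpl13a (chr7:45128731-45128760, minus strand): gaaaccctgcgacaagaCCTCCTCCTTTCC
Rps2 (chr17:24720048-24720077, plus strand): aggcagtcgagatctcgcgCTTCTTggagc
A C with at least 4 pyrimidines after it, beginning within 5 bases of the start, was found in 28 of the 59 ribosomal protein genes with a promoter entry (47.5%). It was found in 19 of 57 genes among the 100 highest rows (33.3%) and in 5718 of all 27025 genes with a promoter entry (21.2%). A TATA word was TATAAA or TATATA, on the gene's strand, 20 to 40 bases before the start. It was in 6 of the 57 (10.5%), in 4 of the 59 (6.78%) and in 893 of the 27025 genes (3.30%). Among protein-coding genes with an entry it was in 1.997% of 9663 averaging at least 1 FPKM and in 7.71% of 4865 below that. A gene was counted if any of its entries held the word. A match is a string of letters in this window and not a measured start or binding site.

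Genes of the extracellular matrix were also among the highest. Col1a1, a chain of type I collagen, had the most counts of any gene, with 53700, 90047 and 92464 in WT1, WT2 and WT3. Col1a2 followed with 44955, 66280 and 65472 counts and Col3a1 with 44493, 67525 and 61024. WT1 was lowest for each of them. The 44 collagen rows held 1.80%, 2.62% and 2.44% of the counts. Per length, Col1a1 averaged 749 ± 217 FPKM and Col1a2 295 ± 67.0 FPKM (SD, n = 3). The Col1a1 level was 2.54 times that of Col1a2, higher in 3 of 3 libraries. That ratio rests on the gene lengths used, 6546 and 12427 bases, and the counts above lay closer together. Type I collagen is built from more of the first chain than of the second, but message levels do not measure chains. Sparc, a matrix protein that binds collagen, stood at 556, 640 and 631 FPKM and ranked just after the first 20. Type IV collagen, the sheet of basement membranes, was led by Col4a1 at 228, 343 and 331 FPKM, beside Col4a2 at 125, 182 and 179 FPKM. The ratio of these paired genes was steady, 0.89 ± 0.0244 on the log2 scale (SD, n = 3), although WT1 was lowest for both. Nid1, a linker of that membrane, averaged 102 FPKM. All 12 listed matrix genes reached 1 FPKM in all 3 libraries, down to Lama1 at 20.8 FPKM.

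Fetal Leydig genes had the highest summed level of the cell types, 2924, 3089 and 2631 FPKM over 16 genes, of which 15 reached 1 FPKM in all 3 libraries and 7 averaged at least 100 FPKM. Cyp17a1, the enzyme that makes androgen precursors from progestins, stood at 871, 795 and 787 FPKM and was the only one of them among the 20 highest rows. Its coefficient of variation (SD over mean) was 5.63%, which made it the steadiest of the list. Insl3, the hormone of testis descent, stood at 563, 729 and 459 FPKM. Ren1, which encodes renin, stood at 383, 380 and 447 FPKM. Hsd3b1, which converts the first steroid of the path onward, stood at 276, 310 and 235 FPKM. Cyp11a1, which cuts the side chain of cholesterol, stood at 226, 244 and 179 FPKM, and Star, which carries cholesterol into mitochondria, at 190, 165 and 151 FPKM. The order Cyp17a1, Hsd3b1, Cyp11a1, Star, Hsd17b3 held in 3 of 3 libraries. Cyp17a1 exceeded Hsd3b1 by 1.59 ± 0.204 (log2, SD, n = 3), while Hsd3b1 exceeded Cyp11a1 by 0.34 ± 0.0534 and Cyp11a1 exceeded Star by 0.36 ± 0.187. By FPKM, the message order along the pathway was therefore not the order of its reactions. The step from Hsd3b1 to Cyp11a1 rests on the gene lengths used, 1786 and 4804 bases. In mean counts Cyp11a1 (16689) was above Hsd3b1 (7842). Vcam1, an adhesion molecule, was the one listed member that missed 1 FPKM, at 0.593 FPKM.

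The supply side of the pathway was also present. All 15 genes of cholesterol synthesis and uptake reached 1 FPKM in all 3 libraries, with a median of 30.7 FPKM. Hmgcs1, an early enzyme of the path, stood at 138, 143 and 129 FPKM. Dhcr7 averaged 59.5 FPKM and Cyp51 46.3. Fdx1 (138 FPKM) and Fdxr (82.1 FPKM), which hand electrons to Cyp11a1 in mitochondria, both lay under Cyp11a1. Fdps and Idi1, of the isoprenoid steps, were the low end at 3.78 and 4.33 FPKM. The summed level of the list varied by 3.45% between libraries, less than that of any other list here.

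The core promoters of some Leydig genes are shown. Each sequence below is the 60 bases before the RefSeq start (GRCm38.p6), with TATAAA or TATAA in capitals where it occurs. The Cyp11a1 entry was kept because it holds the pyrimidine start word described above.
Ren1 (chr1:133350614-133350673, plus strand): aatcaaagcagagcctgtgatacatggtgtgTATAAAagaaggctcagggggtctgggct
Insl3 (chr8:71689192-71689251, plus strand): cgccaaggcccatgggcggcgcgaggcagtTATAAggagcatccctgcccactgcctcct
Hsd3b1 (chr3:98859795-98859854, minus strand): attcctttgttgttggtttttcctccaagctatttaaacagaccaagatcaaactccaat
Cyp11a1 (chr9:58014892-58014951, plus strand): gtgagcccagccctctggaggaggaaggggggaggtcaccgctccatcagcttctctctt
TATAAA begins 29 bases before the start of Ren1. The shorter word TATAA begins 30 bases before the start of Insl3. That word was chosen after the sequence was seen, and is not among those counted. Hsd3b1 holds the similar letters TATTTAAA at that same distance, left unmarked, so the capitals do not set these promoters apart. Of 11 Leydig genes with a promoter entry, 1 held a counted TATA word. The site of SF-1, the factor made by Nr5a1 that switches on steroid enzymes, was searched as AAGGTCA over the 250 bases before the start. Either strand was searched, and the word was also sought with a C before it. Neither form was found in the 11 Leydig genes, against 4.70% and 1.51% of all genes with a promoter entry. That says only that these letters are not in this window. The Cyp11a1 sequence above holds GAGGTCA, left unmarked, which differs from the searched word in its first letter.

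Adult-type Leydig genes were nearly silent. Hsd3b6, the isoenzyme of the adult cell, had 1, 3 and 0 counts, and Sult1e1, which inactivates estrogen, had 1, 2 and 0. Hsd11b1, a glucocorticoid enzyme, had 0, 4 and 0 counts. Cyp2a4 had a count of 0 in all 3 libraries, and 3 counts, the limit that a count of 0 allows, would be 0.102 to 0.114 FPKM per library for a gene of its length. Hsd3b1, the fetal partner of Hsd3b6, averaged 274 FPKM.

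Sertoli genes had summed levels of 2031, 2659 and 2289 FPKM over 30 genes, of which 29 reached 1 FPKM in all 3 libraries. Amh, anti-Müllerian hormone, stood at 385, 674 and 540 FPKM, and WT1 was the lowest. Inha, the alpha subunit of inhibin, stood at 240, 334 and 287 FPKM. Clu, a secreted chaperone, stood at 218, 321 and 254 FPKM. Defb19, a beta-defensin made by fetal Sertoli cells, stood at 182, 192 and 207 FPKM. Inha exceeded Inhbb, a beta subunit, by 2.12 ± 0.0308 (log2, SD, n = 3), a ratio with little spread. Hsd17b3, the enzyme that completes testosterone, is made by Sertoli cells in the fetal mouse and averaged 101 ± 12.7 FPKM (SD, n = 3). The factors that set Sertoli fate were far lower than the hormones: Sox9 stood at 28.6, 26.8 and 31.9 FPKM and Sox8, its close relative, at 28.7, 28.9 and 29.4. Their levels did not differ beyond their spread, with a log2 ratio of 0.0021 ± 0.114. Wt1 averaged 27.2 and Dmrt1 18.8 FPKM. Fgf9, which acts with Sox9 when the testis forms, was the lowest member at 1.07 FPKM.

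The Leydig sum exceeded the Sertoli sum by 0.53, 0.22 and 0.20 on the log2 scale in WT1, WT2 and WT3, so the Leydig list was higher in 3 of 3 libraries. The mean was 0.31 ± 0.183 (SD, n = 3), a ratio of 1.24. The median member stood at 81.9 FPKM for Leydig cells and 29.7 FPKM for Sertoli cells. Sums over lists of 16 and 30 genes give no cell numbers.

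Germ cells showed the programme of prospermatogonia. Of the 23 listed genes, 21 had a row by that name, 19 reached 1 FPKM in all 3 libraries, and the summed level was 829, 583 and 647 FPKM. Mael, needed for transposon silencing, stood at 129, 89.6 and 111 FPKM. Piwil2, a Piwi protein that binds piRNAs, stood at 73.0, 59.3 and 71.8 FPKM. Utf1, a chromatin protein of undifferentiated germ cells, stood at 87.0, 53.9 and 53.5 FPKM. WT1 was the highest library for each of them. Tdrd9, a helicase of the same silencing pathway, averaged 55.4 FPKM, Ddx4, a germ cell helicase, 45.1, Dnmt3l, the cofactor of new DNA methylation, 43.1, and Piwil4, the nuclear Piwi protein, 33.2. Nanos2, which holds male germ cells out of meiosis, was near the limit with 9, 1 and 0 counts. The prospermatogonia sum over the Sertoli sum was -1.29, -2.19 and -1.82 on the log2 scale, so it was 3.41 times lower on average. That compares 21 genes with 30, and the median member stood at 34.2 FPKM against 29.7 FPKM for the Sertoli list.

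Meiotic genes were low but present, and postmeiotic genes mostly were not. Of 13 meiosis genes, 11 reached 1 FPKM in all 3 libraries and 0 averaged 10 FPKM. Sycp2, of the axis that pairs chromosomes, stood at 9.90, 6.15 and 7.28 FPKM, and Dmc1, the recombinase, at 8.79, 7.62 and 5.84. Hormad1, another axis protein, stood at 10.8, 4.11 and 6.56 FPKM, and Rec8, the meiotic cohesin, at 5.59, 6.34 and 5.65. Stra8, the gene that starts meiosis in the fetal ovary, stood at 2.88 FPKM in WT1 but 0.513 and 0.690 FPKM in WT2 and WT3. Of 13 genes of spermatids in the adult testis, 1 reached 1 FPKM in all 3 libraries. That was Ldhc, a lactate dehydrogenase of germ cells, at 6.39, 3.80 and 4.72 FPKM. Spaca1, Akap4 and Acr, of the acrosome and the sperm tail, averaged 0.588 to 0.810 FPKM. Smcp, a sperm mitochondrial protein, had a count of 0 in all 3 libraries, where the limit of 3 counts is 0.195 to 0.217 FPKM.

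Stromal genes summed to 1884, 2812 and 2489 FPKM over 18 genes, all at 1 FPKM or more in all 3 libraries. The 3 fibrillar collagens described above and Dcn, a small matrix proteoglycan (146, 171 and 187 FPKM), led the list. Dlk1 followed at 158 FPKM, Tcf21, a factor of interstitial progenitors, at 157 and Pdgfra, the receptor on those cells, at 91.5. The median member stood at 61.8 FPKM. Myoid genes were led by Acta2, smooth muscle actin, at 194, 160 and 206 FPKM, and Myl9, a myosin light chain, at 130, 128 and 138 FPKM. Tagln averaged 56.5 FPKM and Ptch1, the receptor that reads hedgehog signals, 45.7, while Myh11, the smooth muscle myosin, stood at 20.7 FPKM. The myoid sum lay 4.78 times below the Sertoli sum, over 12 genes against 30. The median member stood at 13.8 FPKM against 29.7 FPKM.

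Vessel and blood genes were lower. All 17 endothelial genes reached 1 FPKM in all 3 libraries and 0 averaged 100 FPKM. Cdh5, the cadherin of vessel walls, stood at 48.9, 52.0 and 66.7 FPKM, Eng at 35.6, 36.5 and 41.7, Sox18 at 18.7, 19.4 and 17.7 and Pecam1 at 11.9, 13.2 and 13.6. The summed endothelial level varied by only 4.96% between libraries. Of 19 leukocyte genes with a row, 11 reached 1 FPKM in all 3 libraries and 0 averaged 10 FPKM. C1qa, a complement gene of macrophages, led them at 5.12, 4.57 and 6.38 FPKM, followed by Laptm5 at 4.20, Ctss at 4.04 and Tyrobp at 3.94 FPKM on average. Itgam, a marker of myeloid cells, had 1, 0 and 0 counts. Red cell genes differed more between libraries: Hba-a1, an alpha globin, stood at 33.9, 68.3 and 37.2 FPKM, and Alas2, of haem synthesis, at 15.1, 18.96 and 15.9. Slc4a1, of the red cell membrane, stood at 6.30, 3.78 and 1.44 FPKM. Of 11 listed red cell genes 7 had a row, and Ahsp, Hba-a2, Hbb-bs and Hbb-bt had none by that name. A predicted locus of 260 bases on chromosome 7, described as hemoglobin subunit beta-1, is outside the list. It stood higher than Hba-a1, at 102, 149 and 86.3 FPKM. Reads of near-identical globin copies cannot be separated. Hbb-bh1, an embryonic globin, had a count of 0 in all 3 libraries, with a limit of 0.289 to 0.323 FPKM.

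Genes of neighbouring tissues and of the ovary were checked against the label. In the duct and surface epithelium list, 10 of 12 genes reached 1 FPKM in all 3 libraries, led by Krt18 (12.3 FPKM), Krt8 (12.1), Upk3b (9.43) and Epcam (7.77). Pax2 and Pax8, factors of the mesonephric duct, averaged 1.06 and 1.46 FPKM, and Lhx1 0.155 FPKM. Of 7 adrenal genes with a row, 4 reached 1 FPKM in all 3 libraries: Cyp11b1 at 12.8, 5.72 and 5.46 FPKM, Pnmt at 4.13, 9.33 and 10.2, Akr1b7 at 4.63 on average and Chga at 2.65. The others were lower, with Cyp11b2 at 0.218 FPKM, Th at 0.370 and Dbh at 0.114. Cyp21a1, also on the adrenal list, had no row by that name. In the nerve and Schwann list, whose median was 0.776 FPKM, Tubb3 averaged 15.3 FPKM, Sox10 4.07 and S100b 1.07. In the ovarian list, 4 of 10 genes reached 1 FPKM in all 3 libraries, namely Wnt4 (17.6 FPKM), Rspo1 (9.89), Bmp2 (2.53) and Lgr5 (1.31). Fst averaged 1.70 FPKM and was at 0.993 FPKM in WT1. Foxl2, the factor that keeps granulosa fate, stood at 1.28, 0.958 and 0.573 FPKM and its log2 ratio to Sox9 was -4.87 ± 0.624 (SD, n = 3). The adrenal sum was 97.0 times below the Sertoli sum, the ovarian sum 64.5 times and the duct sum 36.3 times. These sums run over lists of unlike length, 7, 10 and 12 genes against 30. The medians of the adrenal, ovarian and duct lists were 2.65, 1.12 and 4.60 FPKM, against 29.7 FPKM for the Sertoli list. The testis label was thus met by its defining genes, and how much tissue of other organs the libraries held was not tested.

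**Figure D2:**
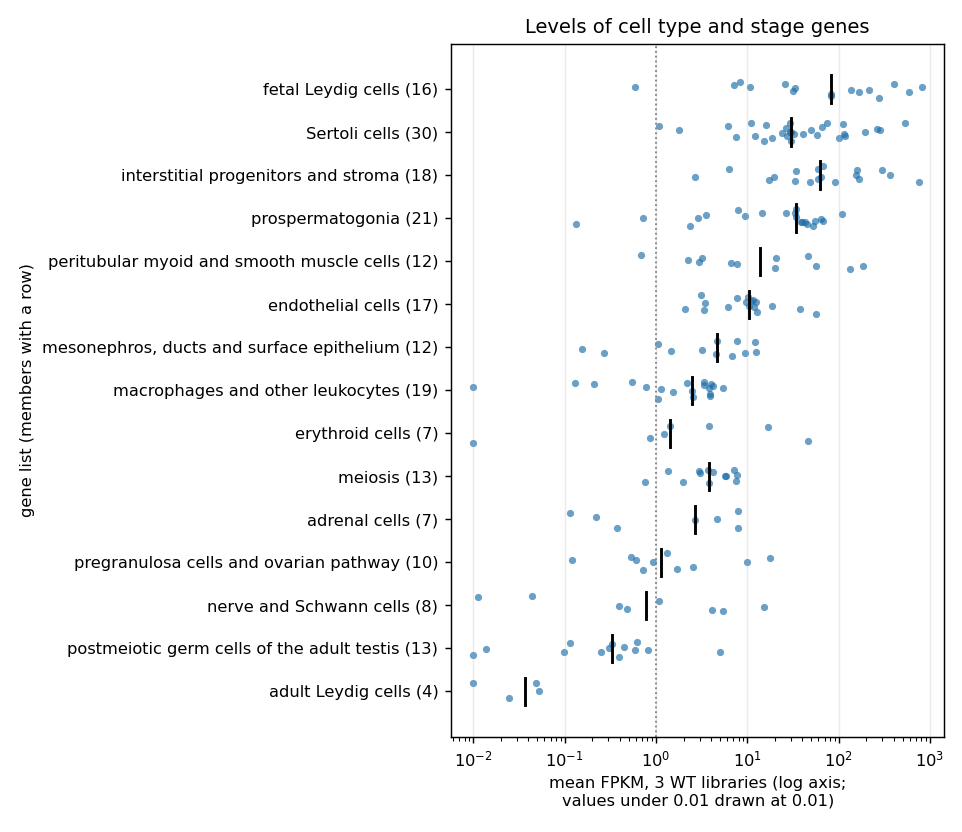
Mean FPKM of each listed gene over the 3 WT libraries on a log axis, by cell type or stage, with 1 point per gene, a black bar at the median and a dotted line at 1 FPKM. The medians run from 81.9 FPKM for fetal Leydig genes and 61.8 for stroma through 34.2 for prospermatogonia and 29.7 for Sertoli genes. They end at 0.333 for postmeiotic genes and 0.0363 for adult Leydig genes.

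Signals and their receptors stood at very different levels. Amh exceeded its receptor Amhr2 (39.4, 46.2 and 31.1 FPKM) by 3.75 ± 0.424 on the log2 scale (SD, n = 3). Insl3 exceeded its receptor Rxfp2 by 9.34 ± 0.358; Rxfp2, which acts in the ligament outside the testis, had 62, 74 and 81 counts, or 0.789 FPKM. Igf2, the fetal growth factor, exceeded Igf1r by 2.29 ± 0.0675 and Igf2r by 1.67 ± 0.0668, both with little spread. Each of these ligands was above its receptor in 3 of 3 libraries. Gdnf, the germ cell survival factor of Sertoli cells, averaged 11.0 FPKM against 0.899 for Gfra1 and 1.51 for Ret, the parts of its receptor. Kitl averaged 26.6 FPKM against 7.73 for Kit. Dhh, the hedgehog signal of Sertoli cells, stood at 57.3, 62.9 and 51.8 FPKM against 36.6, 47.8 and 52.8 for Ptch1. It was higher in 2 of 3 libraries, so these levels did not differ beyond their spread. Of the gonadotropin receptors, Lhcgr of Leydig cells (28.7, 22.03 and 26.6 FPKM) exceeded Fshr of Sertoli cells (6.89, 4.35 and 7.18 FPKM) in all of the libraries. In all, 12 of the 14 listed receptors reached 1 FPKM in all 3 libraries, and Gfra1 and Rxfp2 did not.

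Transcription factors were moderate in level. The file assigns 1538 rows to a factor family; 947 of them reached 1 FPKM in all 3 libraries, 360 averaged at least 10 FPKM and 6 at least 100 FPKM. Those 6, named after their values were seen, were Ybx1 (165 FPKM), Tcf21 (157), Maz (142), Gata4 (119), Jund (114) and Tsc22d1 (107). Tcf21 and Gata4 are gonadal regulators and the others are broadly expressed. Gata4, which acts in Sertoli and Leydig cells, stood at 116, 127 and 113 FPKM. Nr5a1, the master factor of steroid-making cells, ranked 8 among factors at 85.6, 93.7 and 80.1 FPKM. Sox9 ranked 85, Wt1 97, Dmrt1 182 and Foxl2 1010. Families differed in how many members were on: 420 of 555 C2H2 zinc finger rows reached 1 FPKM in all 3 libraries (75.7%), against 68 of 208 homeobox rows (32.7%) and 4 of 15 Pou rows (26.7%). All 13 ARID rows and 40 of 46 bZIP rows did.

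Cell division and imprinted genes completed the picture. All 12 proliferation genes averaged over 10 FPKM, led by Pcna (55.3, 56.2 and 54.8 FPKM), Mki67 (38.2, 53.3 and 70.3), Top2a (49.5 on average) and Mcm5 (45.8). Pcna, the clamp of DNA replication, varied by 1.28%, while Mki67, the proliferation antigen, varied by 29.8%, the widest of the list. Of 16 imprinted genes with a row, 15 reached 1 FPKM in all 3 libraries. Dlk1 stood at 120, 201 and 152 FPKM, Igf2 at 110, 119 and 146, Ndn at 80.6, 117 and 92.8 and Mest at 90.7, 91.7 and 93.9. These are genes of fetal growth expressed from 1 parental copy, although copies of either parent were not separated here. On the X chromosome, 451 protein-coding genes averaging at least 1 FPKM had a median of 7.30 FPKM, against 9.48 FPKM for 12484 on autosomes. Xist, the RNA of X inactivation in females, stood at 0.195, 0.0805 and 0.0962 FPKM.

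By biotype, protein-coding rows held 97.3% ± 0.113 of the counts (SD, n = 3). Predicted loci without a strain identifier held 0.866%, lincRNAs 0.596%, processed pseudogenes 0.385% and processed transcripts 0.313%. On the per-length scale the picture shifted: protein-coding rows held 90.4% of the summed FPKM, predicted loci 2.81% and processed pseudogenes 2.57%. miRNA rows held 0.0233% of the counts but 0.963% of the summed FPKM, a share 41.3 times larger, and for snoRNA rows the factor was 33.9. The 5482 rows shorter than 200 bases held 0.0584% of the counts and 2.21% of the summed FPKM. Among the 100 highest rows were 88 protein-coding genes, 5 processed pseudogenes, 3 predicted loci, 2 miRNA rows, 1 lincRNA and 1 row of unknown but likely coding type.

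**Figure D3:**
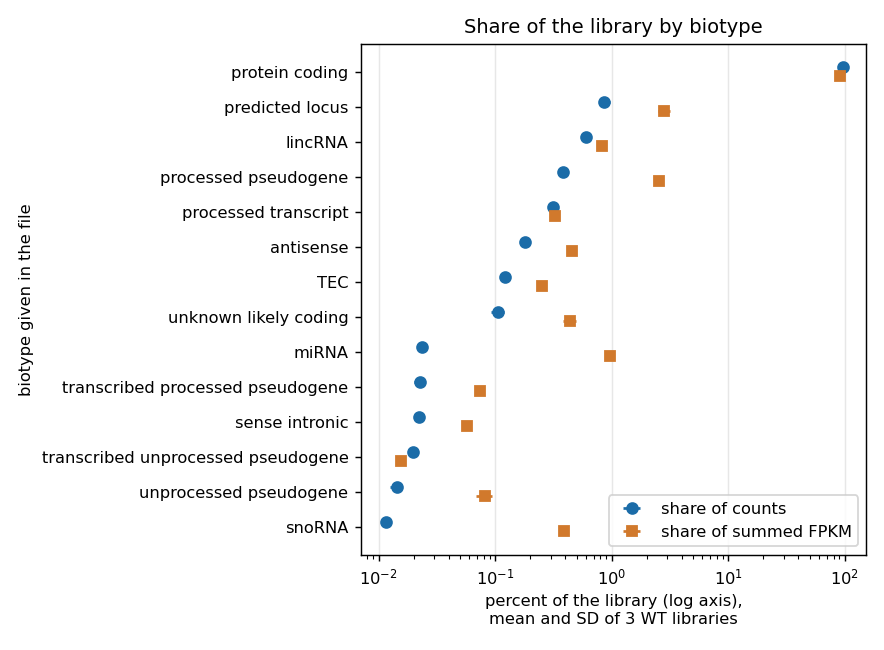
Share of the library held by the 14 biotypes with the most counts, in percent on a log axis, as counts (circles) and as summed FPKM (squares), with the mean and SD of 3 libraries. Protein-coding rows lead on both scales, and the widest gaps between the scales are those of miRNA rows (0.0233% and 0.963%) and snoRNA rows (0.0115% and 0.391%).

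The highest row of all was a predicted locus on an unplaced scaffold (start 575, end 1390), which the file describes as cytochrome c oxidase subunit 1, a mitochondrially encoded protein. It stood at 3256, 1813 and 2726 FPKM and held 0.217% ± 0.0671 of the counts (SD, n = 3). The next was a processed pseudogene of 78 bases on chromosome 10 at 1124, 1568 and 1090 FPKM, with no description. A pair of neighbouring rows on chromosome 9 carry domains of an elongation factor of the EF-Tu family: 1 stood at 1045, 1325 and 949 FPKM (816 bases, start 81125907) and the other at 585, 1138 and 1013 FPKM (1292 bases, start 81127025). These intervals overlap on the same strand. A processed pseudogene on chromosome 9 with the domain of translationally controlled tumour protein averaged 678 FPKM, and another on chromosome X 454 FPKM. In all, 5 of the 20 highest rows and 16 of the 100 highest carried no gene name. So the ranking by symbol leaves out some of the most abundant messages, and reads shared between a gene and its pseudogenes cannot be assigned to either.

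The highest lincRNA was an unnamed row on chromosome 7 (153178758 to 153184004 in the C57BL/6NJ assembly, minus strand, 2355 bases of exon), 78357 bases from Igf2. It stood at 301, 316 and 322 FPKM, higher than Igf2, with a coefficient of variation of 3.47%. Malat1, a nuclear long RNA, followed at 133, 186 and 162 FPKM, and an unnamed row elsewhere on chromosome 7 at 106, 113 and 105 FPKM. Of the listed imprinted long RNAs, Meg3 averaged 41.9 FPKM and Rian 36.7, while Kcnq1ot1 averaged 0.520 FPKM. H19, also listed, had no row by that name. An unnamed lincRNA row of 753 bases within the span of Meg3, on the same strand, averaged 94.7 FPKM. Whether its reads belong to Meg3 was not tested.

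Among miRNA rows the leaders were Gm23419 (937, 1050 and 855 FPKM over 84 bases), Mir686 (423, 469 and 325 over 109 bases) and Mir5125 (215, 156 and 157 over 79 bases). Their counts were modest, with 1213 to 1336 for Gm23419, 599 to 774 for Mir686 and 187 to 278 for Mir5125. The mature sequences of 3 rows are shown with the seed, bases 2 to 8, in capitals, as RefSeq gives them (GRCm38.p6). The third row, Mir196a-1, lies in the Hox cluster of chromosome 11, averaged 47.1 FPKM and was chosen after its value was seen.
mmu-miR-686: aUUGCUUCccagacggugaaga
mmu-miR-5125: uCUGCCUGggauuuccuugu
mmu-miR-196a-5p: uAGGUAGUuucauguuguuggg
mmu-miR-196a-1-3p: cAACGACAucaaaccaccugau
No pair of these shares a seed. Polyadenylated RNA was sequenced, so the rows do not measure the mature RNAs. Of 229 miRNA rows averaging at least 1 FPKM, 227 had a gene of that name in GENCODE M21 (GRCm38). Of these, 14 lay wholly inside an exon of another gene, 13 of them on its strand. At a mean of 10 FPKM or more it was 6 of 20. Gm23419 (chromosome 11, start 120346736 in GRCm38) lay wholly inside no exon. It lay near Mir6935 (start 120347350), on the same strand, which was inside an exon of Actg1. Mir686 lay inside an exon of Psmb5, a proteasome gene that has no row by that name in the table. Mir5125 lay wholly inside no exon, but by the strain coordinates it lay within the span of Srrm2 (120 FPKM), on the same strand. The median miRNA row above 1 FPKM was 79 bases long and had a mean count of 2.67, so most of these levels rest on a few reads.

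The 3 libraries were close to each other. Across 15706 rows averaging at least 1 FPKM, Pearson's r of log2(FPKM + 0.1) was 0.931 to 0.933 between libraries and Spearman's rho 0.967 to 0.968, taken across genes, which are not independent replicates. Between any pair, 5.39% to 5.78% of rows differed by more than 2-fold. The 100 highest rows of each library had 83 in common, and the 500 highest 411. The median coefficient of variation was 12.1% over those rows and 9.02% over 6206 protein-coding genes averaging at least 10 FPKM. Counting error alone would give 13.2% at 1 to 3 FPKM and 3.14% at 10 to 30 FPKM, where the observed medians were 23.5% and 9.21%. Above 300 FPKM the observed median was 12.6%, against 1.05% from counting. The observed spread thus did not keep falling with depth as counting error does. The common biological coefficient of variation, edgeR's estimate of the spread beyond counting, was 14.4% over 16952 genes.

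**Figure D4:**
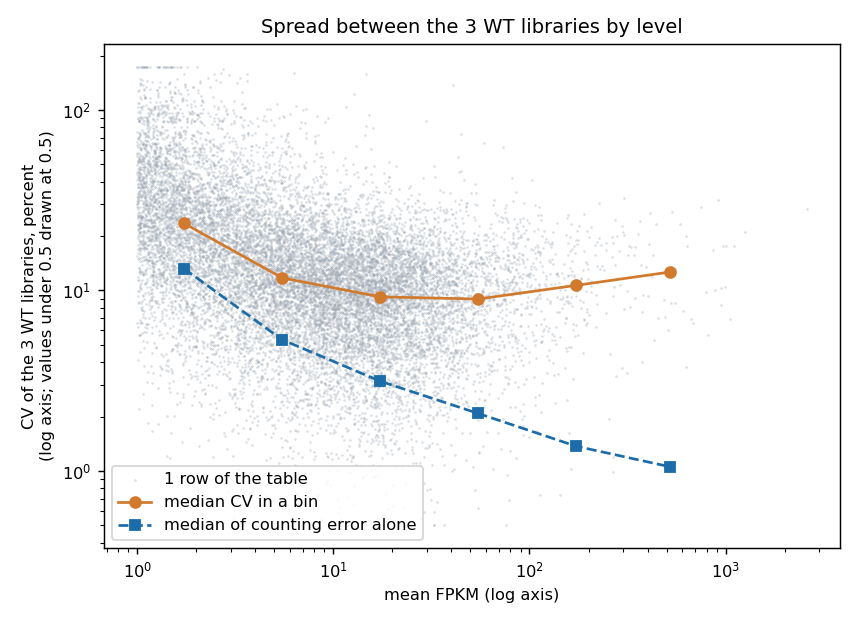
Coefficient of variation of the 3 WT libraries in percent against mean FPKM, both on log axes, with 1 grey point per row, orange circles at the median of each bin of level and blue squares at the median that counting error alone gives. The observed median falls from 23.5% at 1 to 3 FPKM to 8.96% at 30 to 100 FPKM and is 12.6% above 300 FPKM, while the counting line keeps falling to 1.05%.

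Among protein-coding genes averaging at least 10 FPKM, 63 (1.02%) varied by over 30%. S100a9, a neutrophil protein, stood at 7.15, 31.9 and 6.81 FPKM, high in WT2 only. Spp1, the secreted protein osteopontin, stood at 2.34, 21.8 and 19.6 FPKM, low in WT1. Ccl17, a chemokine, stood at 15.1, 32.3 and 38.4 FPKM, and Slc7a5, an amino acid transporter, at 88.4, 69.4 and 150 FPKM. Chchd2 stood at 32.7, 15.5 and 14.4 FPKM, Pop4 at 15.8, 6.12 and 9.54 and Ppia at 56.9, 20.99 and 52.7. Pop4 is a subunit of RNase P, and Ppia, cyclophilin A, has many pseudogenes. The other 3 of the 10 most variable had no gene name. The 10 steadiest included Wdr81, Gid4, Jarid2, Mob1a, Pno1, Btaf1, S1pr3, Ttll12 and Appl2, and the 10 stood at 10.2 to 36.8 FPKM and varied by 0.119% to 0.375%. Their spread lay below counting error, as did that of 504 of the 6206 genes (8.12%), so it is not a measure of how steady these genes are.

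Part of the spread ran along cell types. The highest of the 3 libraries was WT1 for 17 of the 19 prospermatogonia genes averaging at least 1 FPKM and for 10 of 12 meiosis genes, whereas over all 15706 rows WT1 was highest for 32.2%. WT1 was highest for 0 of 18 stromal and 0 of 12 matrix genes. WT3 was highest for 9 of 11 myoid genes and 11 of 14 leukocyte genes (30.9% of all rows), and WT2 for 10 of 15 Leydig and 16 of 30 Sertoli genes (36.9% of all rows). The median gene of a list departed from its mean over the libraries by 0.23 (log2) in WT1 for prospermatogonia, by 0.37 for meiosis, by -0.17 for stroma and by -0.31 for matrix. Over all rows that median lay between -0.02 and 0.01. Genes of 1 list share their cells and their library, so such counts describe 3 libraries, and whether litter, dissection or stage moved with them was not tested. The summed level of the 7 erythroid genes with a row was highest in WT2, 95.8 FPKM against 59.4 and 56.1. That sum leaves out the predicted beta globin locus.

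**Figure D5:**
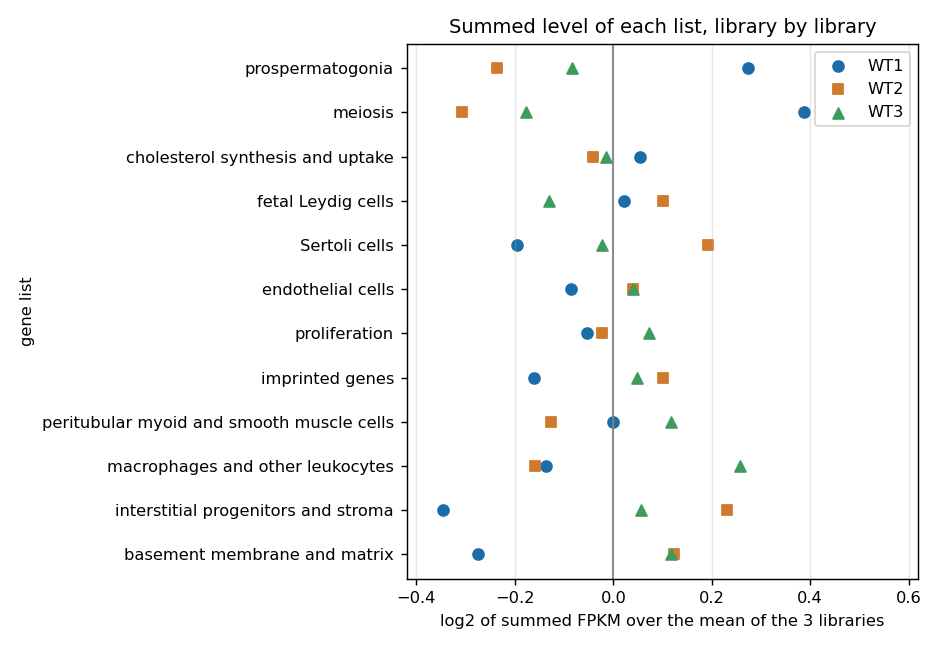
Summed FPKM of 12 gene lists in each WT library, as log2 over the mean of the 3 libraries, with 1 symbol per library. WT1 lies to the right for prospermatogonia (829 against 583 and 647 FPKM) and meiosis (72.9 against 45.1 and 49.3) and to the left for stroma (1884 against 2812 and 2489) and matrix (1405 against 1854 and 1845).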

How the data were processed

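Polyadenylated RNA of whole E16.5 testes was sequenced on an Illumina NovaSeq, per the labels' protocols. The submitters' processing notes name HISAT2 2.0.5 and GRCm38, while the gene identifiers of 41096 rows, per the file headers and rows, are those of the C57BL/6NJ strain annotation, so the file's coordinates were not mixed with GRCm38. No source used here gives the counting tool or its strand setting, so overlapping genes on opposite strands cannot be told apart. The deposited counts are raw whole numbers for each gene. The FPKM values made by the authors matched these counts scaled by gene length and by 0.991 to 1.05 times the library total. Replicates have no stated source beyond 3 mice, and the spread may be partly technical.

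Levels, shares, ranks and coefficients of variation were computed from these columns in Python 3.11.15 with pandas 2.3.3 and numpy 2.4.6, and the biological coefficient of variation in R 4.3.3 with edgeR 4.0.16 (TMM, filterByExpr, no covariate), tested on simulated data. Alternatives used DESeq2 1.42.0. No test between groups was made. A pseudocount of 0.1 was used for log2 FPKM. Limits for a count of 0 are 3 counts per library and cover counting error only. Of 282 distinct listed symbols, 272 had a row. The members and the lists were chosen with earlier results of these data known. Genes were named by rule: the 20 highest rows, the 4 most abundant and any undetected member of each list, the leading non-coding rows, the 10 most and least variable coding genes, and paired pathway genes. Further genes were chosen after their values were seen, and some genes the rule names are not reported here. Promoter and miRNA sequences are from RefSeq.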

Additional observations from a re-analysis of the deposited data

How the results depend on the processing

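No paired analysis was possible because only 1 group was described. Of 49 alternative values for 8 results, 33 kept within a limit set for each result and 16 moved further. For counts the limit was 1.5 times, and for the 100 highest rows in common a binomial interval taken over genes. Elsewhere it was an SD over the libraries or over the values without 1 library. Only the Leydig excess over Sertoli genes has a direction, and 0 of its alternatives reversed it. The 20 highest rows held 6.95% of summed FPKM, and the 20 rows with the most counts held 4.21% of counts, against 2.39%; without 1 library the share was 2.40% to 2.53%. Protein-coding rows held 90.4% of summed FPKM and 99.0% of the counts in named rows, against 97.3%. Without 1 library, 84% to 91% of the 100 highest rows were shared, against 83%, since 2 libraries share more than 3. The Leydig excess over Sertoli genes was 1.40 (log2) between medians of the members, against 0.31 between sums. The median coefficient of variation was 12.4% on CPM by library totals, 27.6% with every row that had a count, 9.23% at a mean of at least 10 FPKM and 9.85% to 10.2% without 1 library, against 12.1%. The biological coefficient of variation was 16.4% with every row that had a count and 14.003% to 14.9% without 1 library, against 14.4%. Scaling by DESeq2 size factors or by library totals, chosen after seeing the data, left WT1 highest for 17 of 19 prospermatogonia genes. With TPM at 1 or more, 18112 rows were detected in place of 14175. Low rows are limited by depth: at 1 to 3 FPKM counting error alone gives 13.2%.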
